A study of Mus musculus with 18 samples.

Results

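Trimethylation of lysine 27 of histone H3 (H3K27me3) was compared between embryonic days E12.5 and E15.5 in the mouse medial ganglionic eminence (MGE), in samples grouped as Ezh2 knockout. The 6 knockout (KO) libraries, 3 at each stage, were chosen from the 18 samples of the series by the genotype and stage in their labels, and each has its own list of enriched intervals. The 3 wild-type (WT) libraries at each stage entered 1 comparison only, and the 6 heterozygous samples were not analysed here. All KO embryos were labelled Nkx2.1-CreC/+;Ezh2;Ai9F/+: they carried a Cre recombinase driven by Nkx2.1, which acts from the MGE progenitor stage on, and the Ai9 reporter, which makes recombined cells red (Tom+). They came from parents with a floxed Ezh2 allele, and the label does not spell out the Ezh2 alleles of the embryos. The labels number biological replicates, and MGEs of embryos of like genotype were combined where applicable, so a library may hold more than 1 embryo. At E12.5 the whole MGE was taken, whereas at E15.5 the Tom+ MGE was dissected under fluorescence, so stage and dissection cannot be told apart. The assay was bulk CUT&Tag, in which an antibody guides a transposase to the mark and the DNA nearby is tagged and sequenced.

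EZH2 is the main methyltransferase of Polycomb repressive complex 2, which places H3K27me3 on silent developmental genes, and EZH1 is its less active relative. The mark covers broad domains over genes of other tissues and other positions, such as the Hox clusters, and is handed on through cell division by the complex that reads and copies it. The MGE is a transient swelling of the ventral forebrain whose progenitors express Nkx2-1 and give rise to cortical interneurons, striatal interneurons and cholinergic neurons. As a rule, genes in use lose or lack the mark and genes of other regions keep it.

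The KO lists held 4575 to 9755 autosomal intervals at E12.5 and 5331 to 8997 at E15.5. They covered 32.1 to 33 Mb and 31.3 to 42.6 Mb, with 1311832 to 2353905 counts in the autosomal intervals of a library. None of 6 summary measures per library, from the number of intervals to the counts per covered kb, separated the stages: the smallest p was 0.3 in an exact two-sided permutation test, which cannot go below 0.1 with 3 libraries against 3. Depth, recovered as the mean count per 200 bp window, was 0.212 to 0.272 at E12.5 and 0.179 to 0.346 at E15.5. The correlation of log2 counts across regions, which are not independent, was 0.966 to 0.974 within E12.5, 0.977 to 0.982 within E15.5 and 0.921 to 0.930 between stages. The X chromosome took 18.1 to 24.5% of the covered bases in the E12.5 KO libraries and 0.885 to 5.33% in the E15.5 KO libraries. Among the WT libraries it took 20.9% in E12.5 replicate 3 and 0.874 to 1.13% in the others. The results below are for autosomes. The part of these differences in them, or in the comparison of KO with WT, was not tested.

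Merging the intervals of the 6 lists gave 12732 autosomal regions, of which 3154 had an interval in every library and were tested, and these held 96.8% of the counts. Between E12.5 and E15.5, H3K27me3 fell at 240 regions and rose at 195 (edgeR's quasi-likelihood test, Benjamini-Hochberg adjusted p below 0.05), or 13.8% of regions, 7.61% lower and 6.18% higher. The change exceeded 2-fold at 202 of the regions that fell and 159 of those that rose, while the median over all regions was -0.08 on the log2 scale. Counts were set against the depth of each library here ("depth-scaled counts"). Scaling that centres most regions on no change (TMM) called 25.8%, with 410 lower (13.0%) and 405 higher (12.8%), and both scalings shared 232 falls and 192 rises. The 3 values of each stage did not overlap at 221 and 192 of the called regions, as at 27.3% of all regions. Leaving out 1 library gave 112 (without E15.5 replicate 3) to 430 (without E12.5 replicate 1) regions lower and 105 (without E15.5 replicate 2) to 355 (without E12.5 replicate 3) higher. In a mixed tissue, a mark lost from fewer cells and a weaker mark per cell cannot be told apart. Scaling by depth shows a change that all regions share only relative to the library's mean count per window, not in absolute amount.

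**Figure D1:**
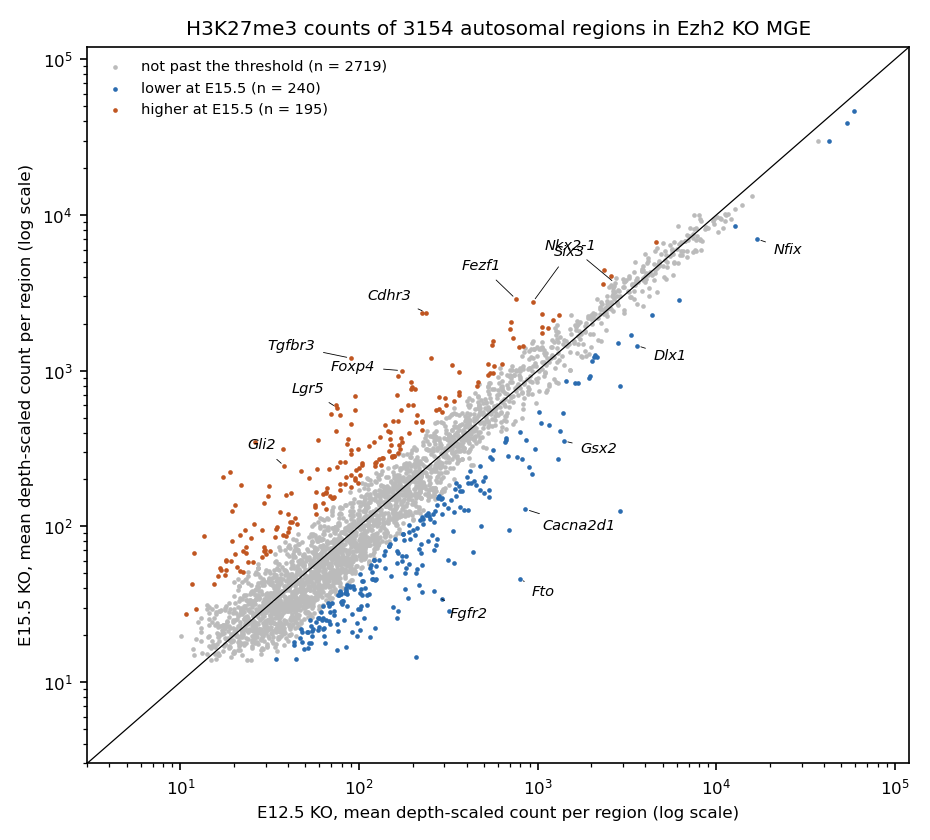
Mean depth-scaled H3K27me3 count of each region tested in the 3 E12.5 KO libraries (x axis, log scale) and the 3 E15.5 KO libraries (y axis, log scale), 1 point a region, with the line of equal counts. The 240 regions that fell (blue) and the 195 that rose (orange) leave most regions near the line, Nkx2-1 among them.

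Among regions at protein-coding genes (gene body and 2500 bp on each side, GRCm38), the largest fall was inside Fto, which encodes an RNA demethylase, at chr8:91501001-91537600. Its depth-scaled counts were 587, 856 and 933 in the E12.5 libraries and 74, 39.7 and 24.1 in the E15.5 libraries (log2 change -4.15, SE 0.35, edgeR adjusted p = 2.31e-29). Every E15.5 library was below every E12.5 library there, and the intervals within the region covered 32.2 to 32.8 kb at E12.5 and 2.60 to 13.2 kb at E15.5. Another stretch of the gene, at chr8:91361001-91382200, fell less (log2 change -1.55, SE 0.33, edgeR adjusted p = 4.56e-05). Fgfr2, which encodes a receptor for fibroblast growth factors (FGFs), fell at chr7:130243601-130268400, a stretch that holds a start site of the gene, from counts of 320.5, 241 and 308 at E12.5 to 43.8, 26.1 and 32.6 at E15.5 (log2 change -3.09, SE 0.36, edgeR adjusted p = 9.71e-16). At Pou3f3, a POU-domain transcription factor gene of the developing forebrain (chr1:42683201-42717000), counts were 546, 457 and 1067 at E12.5 against 147, 77.1 and 62.3 at E15.5 (log2 change -2.88, SE 0.32, edgeR adjusted p = 2.05e-16). The values of the E12.5 libraries spread by over 2 times at Pou3f3 and still lay above all 3 E15.5 values. Cacna2d1, an auxiliary subunit of voltage-gated calcium channels, fell at chr5:15976001-16005200 from 512, 1133 and 918 at E12.5 to 151, 86.1 and 149 at E15.5 (log2 change -2.73, SE 0.32, edgeR adjusted p = 1.71e-15), and also at its start site (chr5:15929001-15941400, -1.16 ± 0.31 SE).

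The other 6 of the 10 largest falls were Gas2l3, a linker of the cytoskeleton (-2.69 ± 0.39, log2 change ± SE), Lrmda (-2.67 ± 0.33), Skap2, an adaptor protein (-2.57 ± 0.34), Tiam2, an exchange factor for Rac (-2.56 ± 0.39), Mrps28, a protein of the mitochondrial ribosome (-2.54 ± 0.41), and Adgrl3, an adhesion receptor of the latrophilin family (-2.50 ± 0.40). A region over the start site of Skap2 was not called (log2 change -0.003). At Mrps28 the first E12.5 library (30.0) was close to the E15.5 range of 16.4 to 23.4. The fall there rested on the other E12.5 libraries (114 and 199). The largest fall of any region lay outside the windows of protein-coding genes, at chr15:85639601-85681400 between Wnt7b and Ppara, and was picked out after its values were seen. Counts in it were 2195, 3082 and 3348 in the E12.5 libraries and 97.3, 118 and 160.0 in the E15.5 libraries (log2 change -4.51, SE 0.30, edgeR adjusted p = 1.67e-47). That region of 41.8 kb overlaps the non-coding gene D130051D11Rik in the RefSeq table, and the next 2 regions towards Wnt7b, a signalling ligand gene, fell as well, the least of the 3 changes being -1.56.

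The largest rise was inside Tgfbr3, which encodes betaglycan, a co-receptor for transforming growth factor beta, at chr5:107230401-107278600. Its depth-scaled counts were 66.9, 87.1 and 116 in the E12.5 libraries and 1226, 1431 and 954 in the E15.5 libraries (log2 change 3.74, SE 0.33, edgeR adjusted p = 4.41e-27). The intervals within this region covered 7.80 to 11.6 kb at E12.5 and 40.2 to 44.2 kb at E15.5, and a neighbouring stretch of the gene rose as well (chr5:107279401-107293800, log2 change 2.27). Lgr5, a receptor for R-spondins that marks some stem cells, rose at chr10:115459001-115482600 from 25.4, 93.4 and 108 at E12.5 to 586, 578 and 569 at E15.5 (log2 change 2.92, SE 0.33, edgeR adjusted p = 1.02e-16). All E15.5 values at Lgr5 lay close together and far above the E12.5 values. Cdhr3, a cadherin-related gene, rose over 68.8 kb at chr12:33018401-33087200 from 114, 216 and 381 at E12.5 to 2430.1, 2649 and 2012 at E15.5 (log2 change 3.32, SE 0.29, edgeR adjusted p = 2.82e-27). Gli2, a transcription factor of the Sonic hedgehog pathway, rose within the gene at chr1:118971601-118993000 from 32.3, 35.9 and 46.3 at E12.5 to 273, 279 and 179.8 at E15.5 (log2 change 2.67, SE 0.36, edgeR adjusted p = 8.52e-12). Gabbr2, a subunit of the GABA-B receptor, rose from 19.6, 137 and 128 at E12.5 to 778, 742 and 556 at E15.5 (log2 change 2.86, SE 0.32, edgeR adjusted p = 2.11e-16). The first E12.5 library was well below the others there. A region over the start site of Gabbr2 was not called (log2 change 0.24). The SKI-family corepressor gene Skor2 (3.06 ± 0.35) and Myo10, an unconventional myosin (2.67 ± 0.43), complete the 10 together with 3 regions at Kcnq1 and Cdkn1c.

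**Figure D2:**
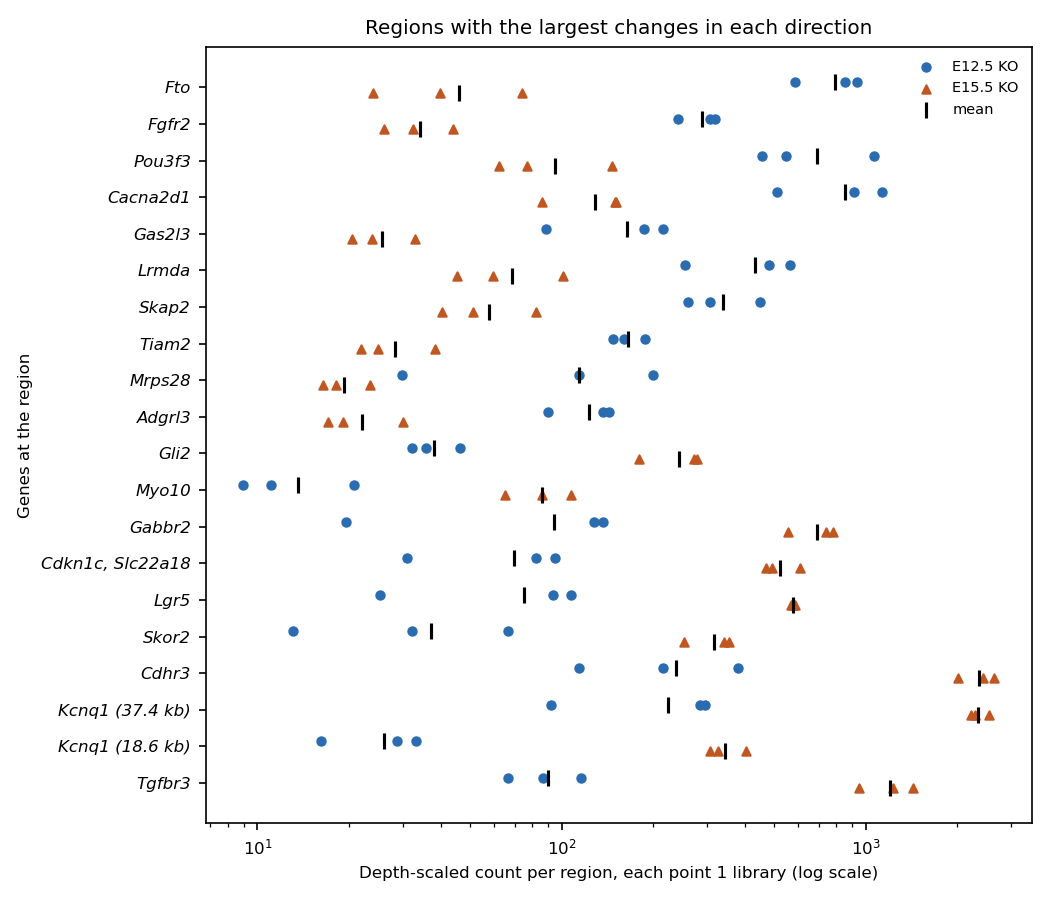
Depth-scaled count of the 10 gene regions with the largest fall and the 10 with the largest rise (rows, genes named on the y axis) in each of the 3 E12.5 KO libraries (circles) and 3 E15.5 KO libraries (triangles), on a log axis, with bars at the group means. The groups do not overlap in any of the 20 rows, and the closest approach is at Mrps28.

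Kcnq1, which encodes a potassium channel, and Cdkn1c, which encodes an inhibitor of cyclin-dependent kinases, lie in an imprinted domain of chromosome 7, and 4 regions there rose together over 192 kb. The region at chr7:143280001-143298600, which overlaps the gene of the non-coding RNA Kcnq1ot1 in the RefSeq table, had counts of 16.1, 28.7 and 33.2 at E12.5 against 308, 402 and 326 at E15.5 (log2 change 3.71, SE 0.36, edgeR adjusted p = 5.73e-22). At chr7:143353401-143390800, also inside Kcnq1, counts were 92.2, 285 and 297 at E12.5 against 2282, 2540.2 and 2210.1 at E15.5 (log2 change 3.38, SE 0.29, edgeR adjusted p = 6.21e-28). The next stretch of Kcnq1, next to Cdkn1c at chr7:143422801-143451800, rose from 106, 165 and 226 at E12.5 to 853, 1102 and 799 at E15.5 (log2 change 2.46, SE 0.31, edgeR adjusted p = 3.93e-13). The region over Cdkn1c and Slc22a18, a transporter gene, at chr7:143452801-143471600 rose from 31.1, 95.2 and 82.5 at E12.5 to 490.4, 608 and 471 at E15.5 (log2 change 2.90, SE 0.33, edgeR adjusted p = 2.62e-16). In all 4 regions each E15.5 library was higher than each E12.5 library, and the first E12.5 library was the lowest. A more distant region of Kcnq1, at chr7:143104401-143111200, did not pass the test (log2 change -0.33).

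**Figure D3:**
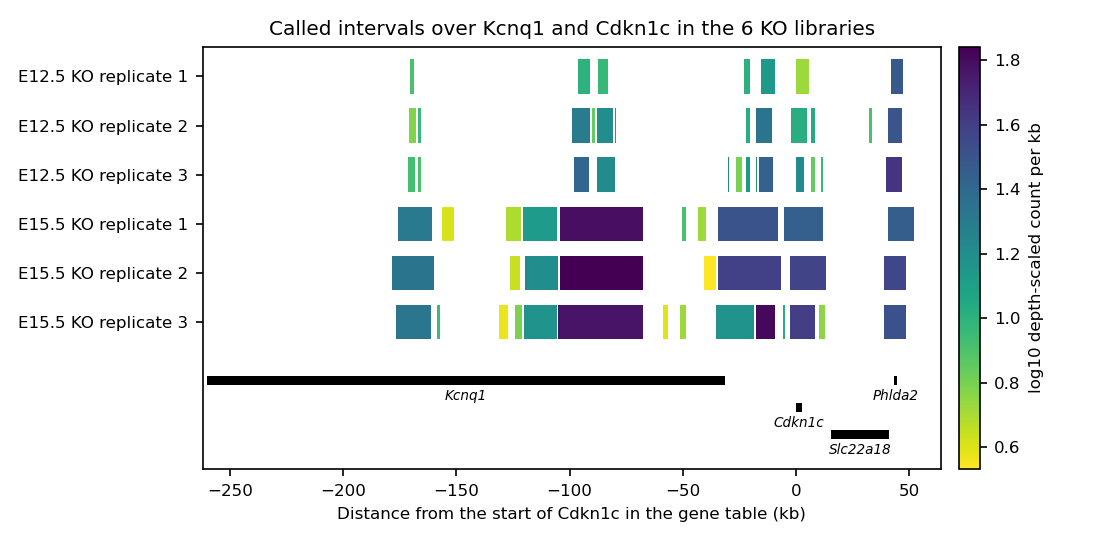
Enriched intervals of the 6 KO libraries (rows) over Kcnq1 and Cdkn1c, by distance in kb from the start of Cdkn1c in the gene table (x axis); colour gives the log10 of the depth-scaled count per kb of an interval and black bars give the genes, of which Kcnq1 runs on past the left edge. In the E15.5 rows the short intervals of the E12.5 rows are replaced by longer ones of higher count over Kcnq1 and Cdkn1c, and the interval at Phlda2 is longer in each E15.5 row than in each E12.5 row.

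Regulators of MGE and subpallial progenitors moved in both directions, with 33.3% of their regions called beside 13.8% of all regions. Of 24 genes listed, 23 lay in 21 tested regions, of which 4 fell and 3 rose, with a median log2 change of 0.11 beside -0.08 over all regions, and TMM called 6 lower and 6 higher. With column sums 57.1% were called, beside 23.8% of all regions. Their median depth-scaled count was 1314, beside 96.6 at E12.5 and 87.3 at E15.5 over all tested regions, and higher counts make a change easier to call. A difference of this or any later list from other regions was not tested. Gsx2, a homeobox gene that patterns the ventral forebrain and is highest in the lateral ganglionic eminence (LGE), fell at chr5:75063001-75092000 from 1192, 1159 and 1847 at E12.5 to 355, 432 and 275 at E15.5 (log2 change -1.99, SE 0.30, edgeR adjusted p = 1.35e-09). Dlx1 and Dlx2, homeobox genes that drive GABAergic fate in the ganglionic eminences, share a region at chr2:71519801-71554600 that fell from 2968, 3861 and 3948 at E12.5 to 1390.4, 1619.8 and 1339 at E15.5 (log2 change -1.31, SE 0.23, edgeR adjusted p = 6.61e-07). Their relatives Dlx5 and Dlx6 share another, at chr6:6843801-6886400, that fell by 1.11 on the log2 scale (SE 0.21, edgeR adjusted p = 3.11e-06). Hes5, a Notch effector of progenitors, fell as well (-0.99 ± 0.34). In the other direction, Six3, a homeobox gene of the anterior forebrain, rose at chr17:85601001-85634400 from 852, 999 and 963 at E12.5 to 2860.2, 3112 and 2294 at E15.5 (log2 change 1.55, SE 0.25, edgeR adjusted p = 3.03e-08), and Otx2 (0.78 ± 0.25) and Dbx1 (0.63 ± 0.22) rose less. In all of these regions the values of the stages did not overlap. Otx2 was no longer called without E12.5 replicate 2 or any 1 of the E15.5 libraries (edgeR adjusted p = 0.0517 to 0.187). Dbx1 was no longer called without E12.5 replicate 3 or any 1 of the E15.5 libraries (edgeR adjusted p = 0.0719 to 0.205). Hes5 was not followed in this way.

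Promoters of a pair of these regulators that fell, of 1 that rose and of Foxp4, described next, are shown because each start site lies inside a region that changed. They run from 250 bases before to 50 bases after the start site, 5′ to 3′, as given by RefSeq on GRCm38.p6, with CG dinucleotides in capitals (both strands read alike for CG). Positions are chr5:75075351-75075650 on the plus strand for Gsx2, chr2:71529195-71529494 on the plus strand for Dlx1, chr17:85620584-85620883 on the plus strand for Six3 and chr17:47924583-47924882 on the minus strand for Foxp4.
Gsx2: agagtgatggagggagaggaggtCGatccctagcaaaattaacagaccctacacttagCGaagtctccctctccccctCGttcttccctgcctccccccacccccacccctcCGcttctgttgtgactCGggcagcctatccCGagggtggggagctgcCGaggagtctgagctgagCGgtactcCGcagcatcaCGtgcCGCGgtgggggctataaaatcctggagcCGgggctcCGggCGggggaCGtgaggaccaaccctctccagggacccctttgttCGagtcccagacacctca
Dlx1: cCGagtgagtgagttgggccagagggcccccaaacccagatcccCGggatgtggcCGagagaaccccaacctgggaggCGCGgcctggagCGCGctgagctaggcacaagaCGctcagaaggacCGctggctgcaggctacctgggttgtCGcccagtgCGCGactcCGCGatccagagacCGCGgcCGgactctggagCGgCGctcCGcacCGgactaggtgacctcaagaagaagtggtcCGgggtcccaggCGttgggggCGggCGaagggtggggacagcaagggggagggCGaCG
Six3: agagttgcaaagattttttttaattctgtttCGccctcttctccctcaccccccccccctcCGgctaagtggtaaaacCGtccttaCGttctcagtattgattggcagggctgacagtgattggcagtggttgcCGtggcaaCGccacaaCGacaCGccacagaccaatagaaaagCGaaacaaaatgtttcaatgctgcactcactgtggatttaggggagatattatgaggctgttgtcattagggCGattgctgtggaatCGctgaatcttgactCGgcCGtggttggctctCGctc
Foxp4: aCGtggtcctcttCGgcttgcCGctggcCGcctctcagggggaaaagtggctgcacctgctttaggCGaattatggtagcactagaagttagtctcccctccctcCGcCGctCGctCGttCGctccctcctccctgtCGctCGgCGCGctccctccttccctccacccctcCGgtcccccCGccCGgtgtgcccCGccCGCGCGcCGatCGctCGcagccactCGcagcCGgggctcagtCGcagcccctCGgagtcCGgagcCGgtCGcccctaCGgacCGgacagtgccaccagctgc
They hold 17, 27, 14 and 33 CG dinucleotides, and 43.9%, 21.5%, 50.2% and 11.8% of the 20085 autosomal promoters in the table hold as many or more. The promoters inside regions that fell (138 matched), that rose (102 matched) and that did not pass the test (1996 matched) each had a median of 20 CG dinucleotides, beside 14 over all promoters of the table. By CG number, the promoters under regions that changed stood with those under the other regions.

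Genes at the core of MGE identity differed among themselves. Of the 8 defining MGE markers, Nkx2-1, Lhx6, Lhx8 and Nkx6-2 did not pass the test, whereas Dlx1, Dlx2, Gad1 and Gad2 lay in 3 regions that fell. Nkx2-1, the selector gene of the MGE, had counts of 1598, 3149 and 3393 at E12.5 against 2930.1, 4316 and 3687 at E15.5 (log2 change 0.43, SE 0.22, edgeR adjusted p = 0.21), with overlapping values. Lhx6, which Nkx2-1 activates in postmitotic MGE cells, had 3139, 4759 and 4682 at E12.5 against 2849, 3891 and 3514 at E15.5 (log2 change -0.29, SE 0.21, edgeR adjusted p = 0.422). At Lhx8, needed for cholinergic neurons, the values did not overlap, at 915, 1316 and 1505 at E12.5 against 1704, 1996 and 1938 at E15.5, but the change did not pass (log2 change 0.59, SE 0.25, edgeR adjusted p = 0.11), although TMM scaling called it (edgeR adjusted p = 0.00899). Shh, the ventral signal of the MGE, gave a log2 change of -0.03 ± 0.25, and Sst, the neuropeptide of an interneuron class, gave 0.09 ± 0.42. Among 27 regions of a list of interneuron and cholinergic neuron genes, 3 fell and 4 rose (25.9%, beside 13.8% of all regions). TMM called 5 lower and 5 higher there. Where covered length differed by no more than 1.5-fold among the 6 libraries, 3 of 12 of these regions fell and 0 rose. Both GABA-synthesising enzymes were among those that fell: Gad1 from 1253, 1769 and 2000.2 at E12.5 to 741, 885 and 871 at E15.5 (log2 change -1.01, SE 0.27, edgeR adjusted p = 0.00251) and Gad2 from 400.0, 534 and 728 at E12.5 to 269.9, 254 and 289 at E15.5 (log2 change -1.03, SE 0.30, edgeR adjusted p = 0.00723). The potassium channel gene Kcnc1 of fast-spiking interneurons fell (-1.14 ± 0.32). The transcription factor genes Maf (1.61 ± 0.43), Prox1 (0.86 ± 0.26), Sox6 (0.89 ± 0.30) and Gbx1 (0.80 ± 0.27) rose. Gad1 was no longer called without E15.5 replicate 1 (edgeR adjusted p = 0.0726). Gad2 was no longer called without E12.5 replicate 2 or any 1 of the E15.5 libraries (edgeR adjusted p = 0.0506 to 0.133). Kcnc1 was no longer called without any 1 of the E15.5 libraries (edgeR adjusted p = 0.0546 to 0.0906). Maf was no longer called without E15.5 replicate 1 (edgeR adjusted p = 0.132). Prox1 was no longer called without E15.5 replicate 1 or 2 (edgeR adjusted p = 0.0999 to 0.15). Sox6 was no longer called without E12.5 replicate 2 or any 1 of the E15.5 libraries (edgeR adjusted p = 0.0994 to 0.302). Gbx1 was not followed in this way. Counts at Maf were low, 16.9 ± 1.59 at E12.5 and 52.6 ± 25.8 at E15.5 (SD, n = 3).

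Foxp4, a forkhead gene of the forebrain, rose the most among genes of the lateral and caudal ganglionic eminences and the striatum. Its region at chr17:47902001-47928200 had counts of 121, 185 and 213 at E12.5 against 1042, 1069 and 889.9 at E15.5 (log2 change 2.53, SE 0.31, edgeR adjusted p = 7.76e-14), its intervals covered 12 to 13 kb at E12.5 and 23 to 26 kb at E15.5, and a smaller region of the gene rose alike (log2 change 2.50). Of 19 regions of that list, 3 rose, with Zfp503 (0.90 ± 0.22), a zinc finger gene of the striatum, and Sp8 (0.65 ± 0.22), and 2 fell, Meis2 (-1.25 ± 0.31), a marker of LGE-derived neurons, and Sp9 (-0.76 ± 0.25). TMM called 2 lower and 6 higher in that list. With depth scaling 26.3% of its regions were called, beside 13.8% of all regions. Among 27 regions of dorsal pallium and glutamatergic genes, 3 rose and 1 fell (14.8%), with a median of 0.24. TMM called 1 lower and 5 higher there, and column sums 2 lower and 11 higher. Fezf1, a zinc finger gene of the early forebrain, rose from 587, 874 and 808 at E12.5 to 2801, 3401 and 2442 at E15.5 (log2 change 1.93, SE 0.25, edgeR adjusted p = 3.74e-12), and its values did not overlap between stages. Lef1, a nuclear mediator of Wnt signals (1.15 ± 0.27), and Lhx5 (0.54 ± 0.20) rose less, and Emx2, a homeobox gene of the cortex, fell (-0.90 ± 0.24). The rise at Lhx5 was lost under TMM scaling (edgeR adjusted p = 0.059). Lhx5 was no longer called without E12.5 replicate 1 or 3 or any 1 of the E15.5 libraries (edgeR adjusted p = 0.0614 to 0.342). Sp8 was no longer called without E12.5 replicate 3 or any 1 of the E15.5 libraries (edgeR adjusted p = 0.0571 to 0.219). Meis2 was no longer called without E15.5 replicate 3 (edgeR adjusted p = 0.0775). Sp9 was no longer called without E12.5 replicate 2 or 3 or any 1 of the E15.5 libraries (edgeR adjusted p = 0.0711 to 0.191).

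The Hox clusters, which are silent in the forebrain and serve as a standard Polycomb target, kept long domains at both stages. Their 39 genes lay in 5 regions, and 4 of these fell slightly. HoxA (chr6:52143201-52331400) had counts of 54179, 70558 and 52917 at E12.5 against 48876, 52293 and 39154 at E15.5 (log2 change -0.34, SE 0.13, edgeR adjusted p = 0.0491). HoxC (chr15:102898801-103092400) had 50222, 64096 and 47509 at E12.5 against 40985, 42583 and 33533 at E15.5 (log2 change -0.47, SE 0.13, edgeR adjusted p = 0.00401). HoxB lay in a main region (log2 change -0.53 ± 0.14) and a region at Hoxb13 (-0.59 ± 0.17), and HoxD did not pass the test (log2 change -0.32, SE 0.14, edgeR adjusted p = 0.109). All 5 changes were negative and at most 0.59 in size, and none of them passed the test under TMM scaling, with edgeR adjusted p from 0.0504 to 0.333. Of 42 regions of midbrain, hindbrain and spinal cord regulators, 1 fell, the HoxA region that Evx1 shares, and 0 rose by edgeR's test (0 higher at an unadjusted p below 0.05, 3 under TMM, 3 with DESeq2's own size factors and 13 with column sums, which also called 9 lower). Of 52 regions of mesoderm, endoderm and epidermal regulators, 1 fell, Prrx1 (-1.78 ± 0.31), a homeobox gene of limb mesenchyme, and 2 rose, Prrx2 (1.09 ± 0.35) and Tcf15 (0.85 ± 0.31), a gene of the paraxial mesoderm, while TMM called 1 lower and 4 higher. The shares of called regions in these lists, 2.38% and 5.77% beside 13.8% over all regions, depended on the scaling: with column sums they were 52.4% and 25% beside 23.8%. A difference of the lists from other regions was not tested. HoxA was no longer called without any 1 of the E12.5 libraries or E15.5 replicate 1 or 3 (edgeR adjusted p = 0.0663 to 0.437). The main HoxB region was no longer called without E12.5 replicate 3 or E15.5 replicate 3 (edgeR adjusted p = 0.0798 to 0.0816). Hoxb13 was no longer called without E12.5 replicate 2 or 3 or E15.5 replicate 1 or 3 (edgeR adjusted p = 0.0636 to 0.154). HoxC was no longer called without E12.5 replicate 3 or E15.5 replicate 3 (edgeR adjusted p = 0.111 to 0.119). Prrx2 was no longer called without E12.5 replicate 2 or any 1 of the E15.5 libraries (edgeR adjusted p = 0.0667 to 0.156). Tcf15 was no longer called without E12.5 replicate 2 or any 1 of the E15.5 libraries (edgeR adjusted p = 0.184 to 0.263).

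Of 15 regions of glial and oligodendrocyte lineage genes, 5 fell and 0 rose by edgeR's test. That is 33.3% called, beside 13.8% of all regions (7.61% lower and 6.18% higher). A difference of the list from other regions was not tested. The median log2 change was -0.49, and 1 region was higher at an unadjusted p below 0.05. TMM, DESeq2's own size factors and column sums each called 1 higher. Nuclear factor I genes, which promote the switch from neurons to glia, led the list. Nfix lay in a domain of 121 kb (chr8:84696401-84817400) with counts of 14299.5, 19727 and 16652 at E12.5 against 6889, 7006 and 7137 at E15.5 (log2 change -1.27, SE 0.17, edgeR adjusted p = 1.51e-11). Nfia fell within the gene at chr4:97750801-97760200, from 195, 239 and 245 at E12.5 to 52.1, 53.3 and 65.1 at E15.5 (log2 change -1.98, SE 0.34, edgeR adjusted p = 3.44e-07), and Nfib missed the threshold (-1.08 ± 0.40, edgeR adjusted p = 0.052). Fgfr3, an FGF receptor of progenitors and astrocytes, fell at its start site (chr5:33714401-33733000), from 257, 262 and 292 at E12.5 to 95.9, 66.9 and 64.4 at E15.5 (log2 change -1.85, SE 0.33, edgeR adjusted p = 8.99e-07). Sox8 (-1.45 ± 0.39) and Slit1 (-1.72 ± 0.41), a guidance cue, were the other members that fell, while the oligodendrocyte genes Olig2 (-0.49 ± 0.28), Sox10 (0.23 ± 0.30) and Pdgfra (0.53 ± 0.27) did not pass the test. In the FGF pathway 5 of 24 regions fell and 1 rose: besides Fgfr2 and Fgfr3, these were Flrt2 (-1.75 ± 0.40) and Flrt1 (-0.96 ± 0.31), membrane partners of FGF receptors, Fgf11 (-1.30 ± 0.32), in a region shared with the nicotinic receptor gene Chrnb1, and, rising, the feedback inhibitor Spry4 (0.87 ± 0.31). TMM called 6 lower and 3 higher in this pathway. With depth scaling 25% of its regions were called, beside 13.8% of all regions. The ligand genes Fgf8 (-0.26 ± 0.22) and Fgf15 (0.54 ± 0.37) did not pass. Spry4 was no longer called without E12.5 replicate 2 or any 1 of the E15.5 libraries (edgeR adjusted p = 0.161 to 0.293). Flrt1 and Sox8 were not followed in this way. Where covered length differed by no more than 1.5-fold among the 6 libraries, 1 of 5 glial and 0 of 6 FGF regions were called lower.

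In the Sonic hedgehog pathway, which patterns the ventral forebrain, 4 of 12 regions rose and 1 fell, with a median of 0.40. Besides Gli2, those that rose were Scube3 (1.98 ± 0.37) and Scube1 (1.60 ± 0.41), secreted proteins of a family that helps release hedgehog, and the co-receptor gene Cdon (1.49 ± 0.39). Scube2, of the same family, fell from 764, 1464 and 1226 at E12.5 to 539.7, 397 and 412 at E15.5 (log2 change -1.36, SE 0.29, edgeR adjusted p = 7.52e-05). Another region, over the start site of Scube2, was not called (log2 change -0.03). The ligand Shh, described above, and the transcription factor genes Gli1 (0.21 ± 0.29) and Gli3 (0.05 ± 0.45) did not pass. At Gli2 the region with the most counts, over its start site, rose less (log2 change 0.87) than the internal region given above, and a region towards its other end gave -0.80 ± 0.30 without passing. Of 41 Wnt pathway regions, 3 rose and 1 fell. Those that rose were Lef1, the ligand gene Wnt5a, from 139, 123 and 188 at E12.5 to 336, 365 and 293 at E15.5 (log2 change 1.14, SE 0.31, edgeR adjusted p = 0.00335), and the receptor gene Fzd7 (0.82 ± 0.29), and that which fell was the ligand gene Wnt7a (-1.85 ± 0.41). TMM scaling called 10 Wnt regions higher and 2 lower. In the bone morphogenetic protein and TGF-beta pathway, 4 of 33 regions rose, with Fst (1.66 ± 0.33), a secreted antagonist, and Id3 (1.13 ± 0.30), a target gene, beside Tgfbr3, and 1 fell, the ligand gene Tgfb2 (-1.32 ± 0.42), and TMM called 3 lower and 4 higher. The shares of regions called were 41.7% for the hedgehog, 9.76% for the Wnt and 15.2% for the last pathway, beside 13.8% over all regions. Cdon was no longer called without E12.5 replicate 2 (edgeR adjusted p = 0.0934). Scube1 was no longer called without E15.5 replicate 2 (edgeR adjusted p = 0.086). Wnt5a was no longer called without E12.5 replicate 2 or E15.5 replicate 2 (edgeR adjusted p = 0.0867 to 0.0934). Fzd7 was no longer called without E12.5 replicate 2 or any 1 of the E15.5 libraries (edgeR adjusted p = 0.115 to 0.253). Id3 was no longer called without E15.5 replicate 2 (edgeR adjusted p = 0.0894). Tgfb2 was no longer called without E12.5 replicate 2 or E15.5 replicate 1 or 3 (edgeR adjusted p = 0.0726 to 0.211).

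Genes of neuronal wiring and signalling had calls in both directions, as had all regions (7.61% lower and 6.18% higher). The shares of regions called were 19.2% for axon guidance, 13.8% for ion channel and 9.8% for neurotransmitter receptor genes, beside 13.8% over all regions. Of 26 regions of axon guidance genes, 3 rose and 2 fell, and TMM called 2 lower and 8 higher. Sema3f, a repellent cue for migrating interneurons, rose from 62.3, 74.5 and 119 at E12.5 to 339.7, 404 and 264 at E15.5 (log2 change 1.97, SE 0.32, edgeR adjusted p = 5.27e-08). Its receptor gene Nrp2 rose too (1.05 ± 0.29), as did the cue Slit2 (1.09 ± 0.35), while the cues Slit1 and Ntn1 (-1.10 ± 0.32) fell. Of 65 regions of ion channel genes, 6 fell and 3 rose, and TMM called 8 lower and 10 higher. Calcium channel subunits stood on both sides: Cacna2d1 and Cacna2d4 (-1.61 ± 0.38) fell and Cacna2d2 (1.24 ± 0.32) rose. Kcnma1, a calcium-activated potassium channel, fell at its most marked region (-2.38 ± 0.33) and rose at another (1.35 ± 0.35). The region over its start site was not called (log2 change 0.36). Besides Kcnq1, the potassium channel gene Kcng1 rose (1.00 ± 0.31). Of 51 regions of neurotransmitter receptor genes, 4 fell, including the glycine receptor gene Glra1 (-1.74 ± 0.34), Chrnb1 (-1.30 ± 0.32, the region shared with Fgf11) and the glutamate receptor gene Grm4 (-1.10 ± 0.33), and 1 rose, Gabbr2, while TMM called 6 lower and 4 higher. Nrp2 was no longer called without E15.5 replicate 2 (edgeR adjusted p = 0.0805). Slit2 was no longer called without E12.5 replicate 2 or any 1 of the E15.5 libraries (edgeR adjusted p = 0.0557 to 0.154). Ntn1 was no longer called without E15.5 replicate 1 or 3 (edgeR adjusted p = 0.099 to 0.237). Cacna2d2 was no longer called without E15.5 replicate 2 (edgeR adjusted p = 0.0619). Kcng1 was no longer called without E12.5 replicate 2 or E15.5 replicate 1 or 2 (edgeR adjusted p = 0.142 to 0.18). Grm4 was no longer called without E12.5 replicate 2 or E15.5 replicate 2 or 3 (edgeR adjusted p = 0.0567 to 0.163).

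Among cell cycle genes known as Polycomb targets, 1 of 6 regions fell and 2 rose (50%, beside 13.8% of all regions). Cdkn2c, a kinase inhibitor gene, fell from 1730.4, 2159 and 1941 at E12.5 to 796, 893 and 1003 at E15.5 (log2 change -1.11, SE 0.26, edgeR adjusted p = 4.24e-04), whereas Ccnd2, which encodes a D-type cyclin, rose (1.06 ± 0.31), as Cdkn1c did. Cdkn2a, the inhibitor gene often released when Polycomb function is lost, had 6928, 9732 and 7865 at E12.5 against 6141, 6408 and 5437 at E15.5 and did not pass (log2 change -0.45, SE 0.19, edgeR adjusted p = 0.0978), although its values did not overlap. Ccnd2 was no longer called without E12.5 replicate 2 or E15.5 replicate 1 or 2 (edgeR adjusted p = 0.0726 to 0.165). No interval was called at Ezh2 or Ezh1 in any KO library, and the mark at a gene says nothing of whether Ezh2 was deleted. Of 9 regions of Polycomb and H3K27 demethylase genes, none passed edgeR's test with depth scaling, with 2 at an unadjusted p below 0.05 (2 fell and 1 rose under TMM, as with DESeq2's own size factors, and 0 with DESeq2 on depth). Log2 changes were 0.01 ± 0.19 at Cbx2 and -0.03 ± 0.20 at Pcgf1, subunits of Polycomb repressive complex 1, and both turned sign when single libraries were left out. Of 18 housekeeping genes, 3 had an interval in any KO library and none in all 6. Markers of other cells that the dissection could hold, endothelial, mural, microglial, meningeal and blood, had 8 of 34 genes in tested regions, and none of the 7 regions passed edgeR's test with depth scaling (1 at an unadjusted p below 0.05), while 1 did under TMM and with DESeq2's own size factors and 0 with DESeq2 on depth. Their summed depth-scaled counts were 1850 to 3050 at E12.5 and 2173 to 2462 at E15.5. As a silencing mark, H3K27me3 does not measure how many such cells were present, and their part in the results was not tested. Of the defining MGE markers, 8 of 8 had an interval in all 6 libraries, as had 5 of 6 of the pallium and 4 of 4 of the LGE.

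**Figure D4:**
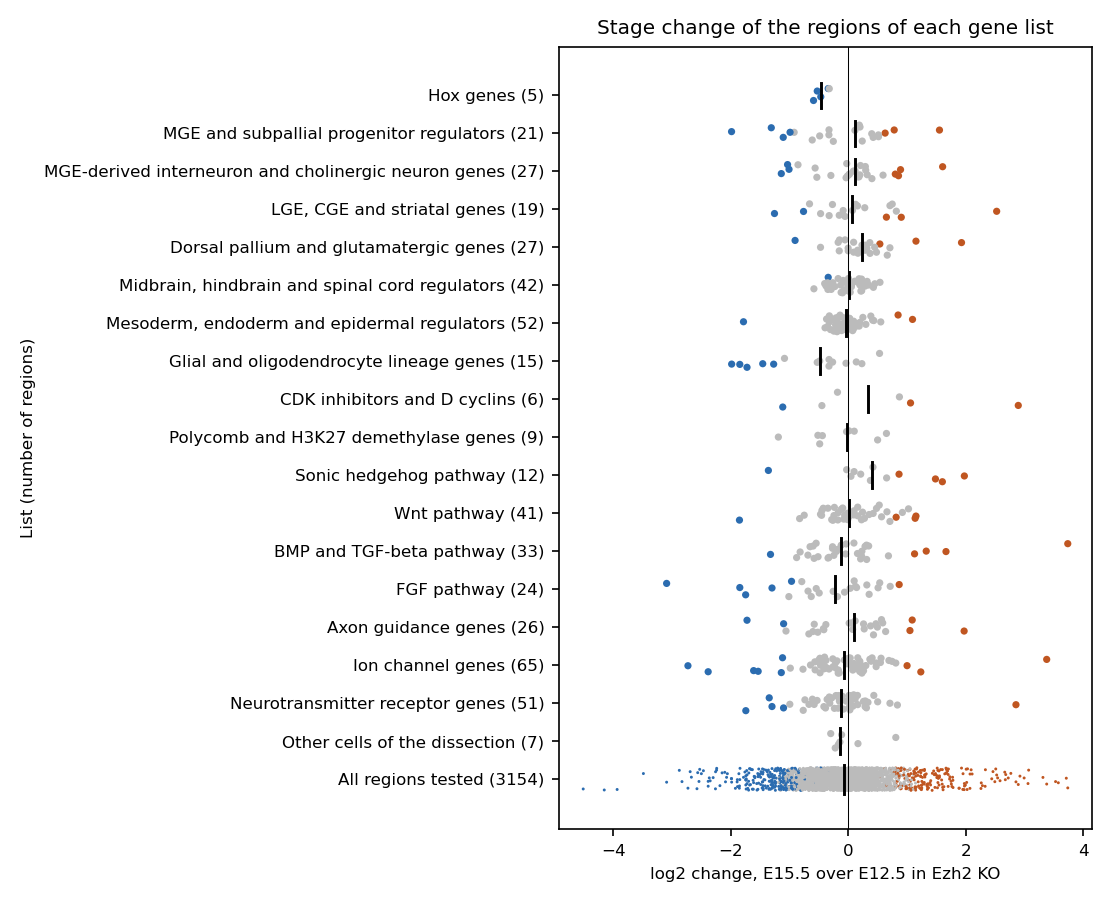
Log2 change from E12.5 to E15.5 (x axis) of the tested regions of each gene list (rows, number of regions in brackets), with regions that fell in blue, that rose in orange and the others in grey, and a black bar at the median of each list. Glial regions that passed lie left of 0, the lists of MGE, Wnt and channel genes have calls on both sides, and the bottom row gives all 3154 regions.

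Counts were also summed over all regions of a gene, and of 3003 genes 166 fell (5.53%) and 124 rose (4.13%), 9.66% in all. A sum hides genes whose regions moved in opposite directions. Lrmda, a long gene next to Zfp503 on chromosome 14, showed this most: regions of it gave log2 changes of 2.09, -1.73, -0.74, -2.67, 1.25 and 2.26 in the order of their start, from 22004001 to 22733801, and these 6 of its 9 tested regions passed the test. The first of them had counts of 85.3, 195 and 210.2 at E12.5 against 803, 744 and 555 at E15.5, and the fourth fell from 254, 563 and 481 at E12.5 to 101, 45.3 and 59.5 at E15.5. Grik3, Clybl, Nav2, Prdm16 and Kcnma1 also held regions of both directions. Such genes were singled out after their values were seen. Called regions with less than 100 kb between neighbours formed 48 groups that held 108 of the 435, and 41 groups moved in 1 direction (22 lower and 19 higher). The largest such groups were the HoxB cluster with 4 that fell, the Kcnq1 and Cdkn1c domain with 4 that rose, and a span of 244 kb at chr7:131577601-131822000, between Bub3 and Gpr26, with 4 that rose by 1.12 to 3.00 on the log2 scale.

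In form, regions that changed are described here with no test. Regions that fell had a median width of 12.1 kb, those that rose 14 kb and the others 8 kb. A start site lay inside 39.2% of the regions that fell and 36.9% of those that rose, beside 56% of the others, in a promoter table that is not complete. The median length covered by intervals went from 9.93 to 6.23 kb where counts fell and from 6.40 to 11.5 kb where they rose. Counts are known only inside intervals, so a change in counts can include a change in the length called. Of the 808 regions whose covered length differed by no more than 1.5-fold among the 6 libraries, 54 fell (6.68%) and 25 rose (3.09%). Over all tested regions the shares were 7.61% and 6.18%. Among the 808, 1 of 22 ion channel regions fell and 0 rose, and 0 of 13 neurotransmitter receptor regions were called. Of 4 hedgehog regions 1 fell and 1 rose, and 0 of 1 cell cycle region was called. Of 18 regions of MGE and subpallial progenitor regulators, 3 fell and 3 rose.

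Some regions were called at 1 stage alone: 138 had an interval in all 3 E12.5 libraries and in no E15.5 library (1.08% of the 12732 regions), and 191 had the reverse (1.5%). These counts have no test, and a region without an interval has no count in the files. The longest region found at E15.5 alone lay in Lingo1, an inhibitor of myelination and axon growth, over 57.8 kb at chr9:56722001-56779800, with depth-scaled counts of 763, 769.7 and 397. A neighbouring region of Lingo1 that was called in all 6 libraries rose (log2 change 1.43, SE 0.30, edgeR adjusted p = 3.43e-05). Kirrel3, a synaptic adhesion gene, had such a region at chr9:34647201-34676400 with counts of 926, 975 and 750.4, and Bahcc1, Syne3 and a stretch beside Cdhr3 had the others of the 5 longest. Regions found at E12.5 alone were shorter, at most 14.2 kb. The longest lay in Btrc, a ubiquitin ligase subunit, with counts of 81.8, 83.5 and 95.5, and near Fgfr2 at chr7:130039401-130053600 with 114, 125 and 172. A stretch of each of Tgfbr3, Kcnq1, Gabbr2, Cdon and Cacna2d2 was found at E15.5 alone, beside the regions of these genes that rose, and a stretch of Nfia was found at E12.5 alone.

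WT libraries were used to ask which changes differ from those of the WT MGE. Regions were merged anew over the 12 lists, and 2368 had an interval in every library. In this fit the stage changed 18.4% of regions in KO and 47.8% in WT with depth scaling, where the median WT region fell by 0.617 on the log2 scale and the median KO region by 0.0177. With TMM scaling, which takes out most of this shift (medians -0.09 and -0.05), the shares were 33.4% in KO and 39.3% in WT. Under TMM 509 regions moved the same way in both genotypes, 64.4% of those called in KO and 54.7% of those called in WT, and 6 moved in opposite ways. Of the 435 regions above, 333 matched a region of this fit, and 301 of them had the same sign in WT (90.4%, beside 75.5% of all regions). Neighbouring KO regions could match the same region of this fit, as at 1110051M20Rik, so some WT values are counted more than once. The falls at Cacna2d1 and Skap2 were also seen in WT (TMM log2 changes -2.44 and -2.24), and the intergenic region between Wnt7b and Ppara fell by 4.58 there.

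The test of the difference itself, the interaction of genotype and stage, called 158 regions more positive in KO and 0 more negative (5 at an unadjusted p below 0.05) with edgeR's test and depth scaling (6.67% of regions), and 46 and 5 with TMM (2.15%), and 1.94% passed under both. Of the 333 matched regions, 32 passed under both, of which 32 rose in KO. KO regions that matched the same region share its test, so the 32 may hold repeated tests. The matched regions were picked by their change in the same KO counts. A difference in the direction of the KO change is therefore partly built in. Tgfbr3 was among the genes with a difference. WT counts there were 476, 1254 and 886 at E12.5 and 1361, 1456 and 1568 at E15.5, and KO counts 66.9, 87.1 and 116 at E12.5 and 1226, 1431 and 954 at E15.5. At E15.5 the KO and WT values overlapped, and at E12.5 each KO library was below each WT library. Gli2 had WT counts of 206, 601 and 429 at E12.5 and 299.6, 448 and 496 at E15.5, against KO counts of 32.3, 35.9 and 46.3 and 273, 279 and 179.8. WT values overlapped between stages there (log2 change close to 0 with depth scaling and 0.54 with TMM), and each KO value was below each WT value of its stage. The region merged over the 12 lists spanned 38.4 kb at Gli2, more than the KO region given above. The part of called length in this gap was not tested. Wnt5a had WT counts of 302, 286 and 252 at E12.5 and 212, 199 and 165 at E15.5, against KO counts of 139, 123 and 188 and 336, 365 and 293, so KO was the lower genotype at E12.5 and the higher at E15.5. Lgr5, Foxp4, Fzd7 and the Kcnq1 regions that start at 143280001 and 143353401 differed as well. The Kcnq1 region next to Cdkn1c, from 143422801, differed with depth scaling (edgeR adjusted p = 0.0189) and not with TMM (edgeR adjusted p = 0.182). The E15.5 WT libraries held 573838 to 1197398 counts and the E12.5 WT libraries 1072434 to 6846250, and the part of this spread in the difference was not tested. The counts of regions with a difference moved widely when 1 library was left out, from 63 without E12.5 WT replicate 2 to 1070 without E12.5 KO replicate 3.

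**Figure D5:**
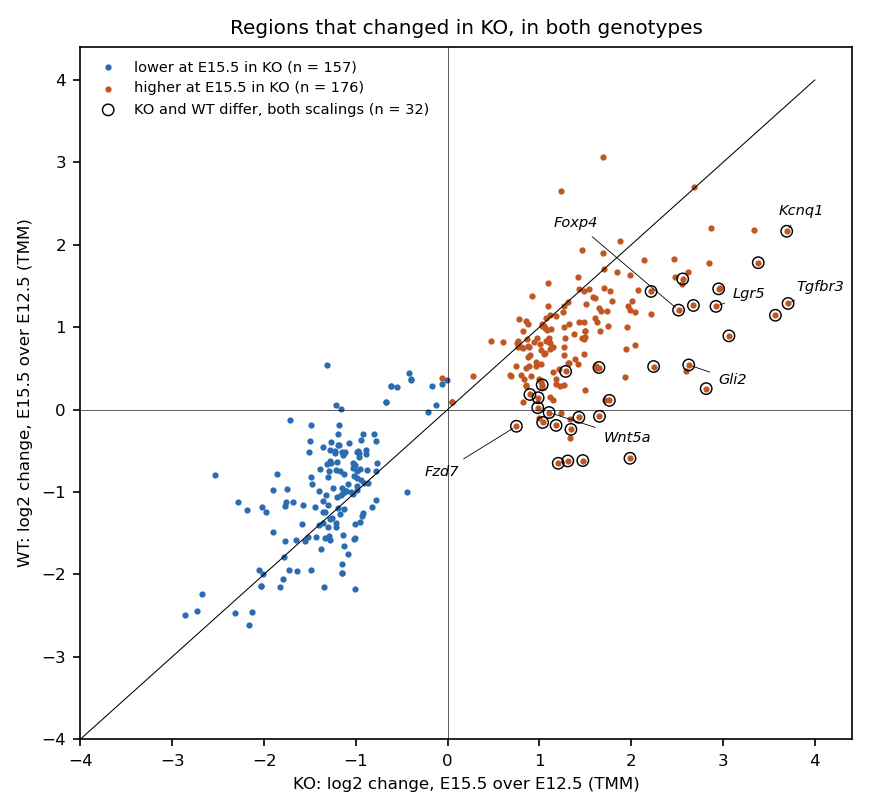
Log2 change from E12.5 to E15.5 with TMM scaling in KO (x axis) and in WT (y axis) for the 333 regions that changed in KO and matched a region of the 12-library fit, 1 point a region, with the line of equal change. Blue and orange points lie mostly in the quadrants where both genotypes fell or rose. The 32 circled regions, where KO and WT differed under both scalings, lie below the line at positive KO changes. All points were picked by their KO change, so the side of the line is partly built in. Points of KO regions that matched the same region lie on top of each other.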

How the data were processed

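H3K27me3 CUT&Tag libraries of 3 E12.5 and 3 E15.5 KO MGE samples were compared, with 6 WT libraries for the interaction. The submitters' processing notes name cutadapt, Bowtie2, SAMtools, Picard, deepTools and SICER, with no versions or roles, and GRCm38/mm10. Each deposited list gives intervals of 200 bp windows, a count per interval that is whole and not normalized, and a score; intervals were called per library, and reads outside intervals are not in the lists. From the values, the deposited score is a sum over windows of a natural log Poisson probability, and single-window intervals gave each library's mean count per window ("depth"), which was taken as proportional to its reads. No spike-in is mentioned in the labels.

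Autosomal intervals that shared at least 1 bp were merged, counts summed, and regions with an interval in all 6 libraries tested with edgeR 4.0.16 (glmQLFit, glmQLFTest, library size set by depth, Benjamini-Hochberg, threshold 0.05; R 4.3.3); SE is the log2 change over the root of F. A depth-scaled count is the count over its library's depth times the mean depth of the 6 KO libraries. Genes are those of the RefSeq table (GRCm38.p6), protein-coding, with 2500 bp on each side; a gene with several regions was represented in a list by that with the highest mean. DESeq2 1.42.0 and other scalings, filters and left-out libraries were alternatives. The scripts were tested on simulated data. The members and gene lists were chosen with earlier results of these data known. Named are 9 set genes, the 10 largest non-overlapping changes at genes in each direction, and up to 3 genes a list and direction by smallest p (where none passed, those with the highest counts). Replicates are separate samples by label, and p-values measure the spread between these samples.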

Additional observations from a re-analysis of the deposited data

Results flagged for a closer look

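The 8 regions below changed with stage by a different amount in KO than in WT. The difference was tested as the interaction of genotype and stage (edgeR, 12 libraries, adjusted over 2368 regions), and each passed with depth scaling and with TMM. A positive value means a more positive change in KO. Counts are summed over regions merged from the 12 lists, which can be longer than the KO regions above: 38.4 kb at Gli2, 42.8 kb at Foxp4 and 50.6 kb at Fzd7. Each region also rose in the KO test above, which uses the same KO counts, so a positive difference is partly built in.

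At Tgfbr3, the co-receptor gene, the difference was 3.00 on the log2 scale (SE 0.33, edgeR adjusted p = 2.59e-13, and 2.42 with TMM, adjusted p = 4.77e-05), from 3.74 in KO and 0.74 in WT (with TMM 3.71 and 1.29). It passed in each of 15 alternatives. Within Gli2, the hedgehog transcription factor gene, the difference was 2.66 on the log2 scale (SE 0.41, edgeR adjusted p = 2.68e-07, and 2.09 with TMM, adjusted p = 0.00169), from 2.66 in KO and close to 0 in WT (with TMM 2.63 and 0.54). The WT rise passed with TMM (edgeR adjusted p = 0.0427) and not with depth scaling. The difference passed in each of 15 alternatives. For Lgr5, the R-spondin receptor gene, the difference was 2.19 on the log2 scale (SE 0.40, edgeR adjusted p = 2.76e-05, and 1.67 with TMM, adjusted p = 0.0257), from 2.92 in KO and 0.73 in WT (with TMM 2.92 and 1.25). WT counts were 95.9, 367 and 276 at E12.5 and 365, 407 and 481 at E15.5, and the call was lost when regions with 2 libraries a group were added (edgeR adjusted p = 0.0908). Inside Kcnq1, at the region that starts at 143353401, the difference was 2.17 on the log2 scale (SE 0.31, edgeR adjusted p = 4.33e-08, and 1.60 with TMM, adjusted p = 0.0173), from 3.38 in KO and 1.21 in WT (with TMM 3.38 and 1.78). WT counts were 438, 1191 and 696 at E12.5 and 1993, 1827 and 1620.3 at E15.5, and the call was lost when regions with 2 libraries a group were added (edgeR adjusted p = 0.0519). At the Kcnq1 region over Kcnq1ot1, the difference was 2.07 on the log2 scale (SE 0.45, edgeR adjusted p = 4.54e-04, and 1.53 with TMM, adjusted p = 0.0179), from 3.71 in KO and 1.64 in WT (with TMM 3.69 and 2.16). WT counts were 41.7, 152 and 87.5 at E12.5 and 316, 276 and 328 at E15.5, and the call was lost when regions with 2 libraries a group were added (edgeR adjusted p = 0.0579). At Foxp4, the forkhead gene, the difference was 1.87 on the log2 scale (SE 0.30, edgeR adjusted p = 6.17e-07, and 1.31 with TMM, adjusted p = 4.02e-04), from 2.54 in KO and 0.67 in WT (with TMM 2.52 and 1.21). WT counts were 1080.4, 1856 and 1235 at E12.5 and 1976, 2336 and 2330.1 at E15.5. For Wnt5a, the ligand gene, the difference was 1.69 on the log2 scale (SE 0.39, edgeR adjusted p = 0.00171, and 1.14 with TMM, adjusted p = 0.0173), from 1.14 in KO and -0.55 in WT (with TMM 1.11 and -0.04). The WT change alone did not pass. At Fzd7, the Wnt receptor gene, the difference was 1.51 on the log2 scale (SE 0.29, edgeR adjusted p = 6.08e-05, and 0.95 with TMM, adjusted p = 0.0173), from 0.80 in KO and -0.71 in WT (with TMM 0.75 and -0.20). WT counts were 1885, 2252 and 2093 at E12.5 and 938, 1350.3 and 1521 at E15.5.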

How the results depend on the processing

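The depth of the lists limits what can be seen: counts exist only inside called intervals, the first E12.5 KO and first E15.5 KO libraries have the fewest counts, and 5738 of the 12732 regions were called in 1 library. Of 87 named regions, 46 kept their direction and their side of the threshold in every alternative; over 1408 comparisons 1244 did so, 138 lost the call, 9 gained it and 17 changed sign. Other regions, such as those of Hes5, Gbx1, Flrt1 and Sox8, were not followed singly, so how stable their calls are is not known.

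At shared regions (240 lower and 195 higher), TMM gave 410 and 405, higher calls were 398 with column sums, 404 with DESeq2's own size factors and 394 with all libraries of at least 1 stage, and like covered length gave 54 and 25 of 808 regions. The replicate block gave 140 lower and 137 higher. Deviations of same-numbered libraries had correlations of 0.06, -0.02 and 0.12, and those of other pairs -0.15 to 0.10. These values cannot settle whether the numbers pair the libraries. Leaving out a library gave 112 (without E15.5 replicate 3) to 430 (E12.5 replicate 1) lower and 105 (E15.5 replicate 2) to 355 (E12.5 replicate 3) higher, and also 141 lower without E15.5 replicate 2 and 114 higher without E15.5 replicate 1. Gene windows gave 354 and 401 with TMM, and 56 to 306 lower and 56 to 365 higher with a library left out (120 and 86 with the block). The KO and WT difference gave 5 more negative and 46 more positive with TMM, 35 positive with 2 libraries a group and 272 with the block, and 0 to 3 negative and 63 to 1070 positive with a library left out, 422 without the first E12.5 WT library. Regions at 1 stage alone were 56 and 69 if intervals had to cover at least a 0.5 share, and 169 to 706 (first E12.5) at E12.5 alone and 201 to 404 (second E15.5) at E15.5 alone with a library left out, where 2 libraries suffice. The cause of the other changes was not tested.

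Per library (E15.5 minus E12.5), all chromosomes turned covered bases to -0.129 and counts per covered kb to 0.0276 on the log2 scale, and leaving out a library gave -0.395 to 0.151 for the number of intervals, -0.169 to 0.0513 for counts over depth and -2.52 to 1.45 percentage points for gene windows. Genes near 0 changed sign: Shh to 0.013 with TMM, 0.031 with column sums and 0.037 with DESeq2, Pcgf1 to 0.021 and 0.016 in the last 2, and with a library left out Shh gave -0.209 to 0.113, Pcgf1 -0.160 to 0.086, Cbx2 -0.123 to 0.106, Pdgfrb -0.293 to 0.013 and Sst -0.146 to 0.370.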

Other observations

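Long genes outside the lists held several regions that moved together, and these were singled out after their values were seen. Zfp423, a zinc finger gene of cerebellar and forebrain progenitors, rose at a pair of regions, chr8:87953601-87965200 (log2 change 2.58, SE 0.33, edgeR adjusted p = 1.03e-12) and chr8:87655801-87668200 (log2 change 1.67, SE 0.32, edgeR adjusted p = 5.67e-06), with counts at the first of 38, 61.1 and 78.4 at E12.5 against 379, 407 and 287 at E15.5. Rora, a nuclear receptor gene, rose at chr9:68689201-68703600 from 17.3, 24.3 and 27.2 at E12.5 to 115, 98.6 and 70.1 at E15.5 (log2 change 2.02, SE 0.40, edgeR adjusted p = 1.45e-05) and at 1 more of its 4 regions. Smyd3, which encodes a lysine methyltransferase, rose at chr1:179034601-179055800 from 43.8, 67.4 and 113 at E12.5 to 451, 414 and 359.6 at E15.5 (log2 change 2.44, SE 0.33, edgeR adjusted p = 7.88e-12) and at chr1:179097801-179116000 (log2 change 1.05). Nfic, the remaining nuclear factor I gene, fell at both of its regions, from 63.4, 97 and 91.5 at E12.5 to 17.8, 26.1 and 6.37 at E15.5 (log2 change -2.38, SE 0.42, edgeR adjusted p = 7.64e-07) and from 187, 339 and 297 at E12.5 to 86.3, 81.6 and 80.7 at E15.5 (log2 change -1.73, SE 0.33, edgeR adjusted p = 3.91e-06).

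Outside gene windows, the largest rises were at chr3:66734601-66751800, with Shox2 as the nearest protein-coding gene at 219923 bp, from 17.3, 10.8 and 24.1 at E12.5 to 208, 219.9 and 195 at E15.5 (log2 change 3.58, SE 0.40, edgeR adjusted p = 1.19e-16), and at chr8:125307001-125332600, 41858 bp from Disc1, from 16.1, 20.7 and 20.1 at E12.5 to 233, 268 and 166 at E15.5 (log2 change 3.53, SE 0.39, edgeR adjusted p = 8.18e-17). The values of the stages did not overlap in either.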
